A study of Arabidopsis thaliana with 24 samples.

Results

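The 46 genes described here encode light-harvesting antenna proteins and nuclear subunits of both photosystems of Arabidopsis thaliana. All 46 were higher in red light than in darkness in seedlings with phytochrome B (phyB) in the epidermis. They were chosen by family and by gene identifier: 15 LHCB genes, 6 LHCA genes, 12 PSA genes and 13 PSB genes, out of 19916 genes tested for red light over darkness. Some other nuclear genes with PSA or PSB names were left out of the 46. The choice was made with earlier results of these data known. Whole seedlings of 4 lines, all with Col-0 as ecotype background, were sequenced as 3 libraries in each of 8 groups, one group per line after 60 h of darkness and one after 60 h of red light (19 µmol per m2 and s). MLB is the phyB-9 mutant with PHYB driven by the ML1 promoter of the epidermis. EMS27, an rrc1 mutant, was compared with MLB, and rrc1-689, a further rrc1 mutant, with Col-0, which has its own PHYB; RRC1 is known as a splicing factor in phyB signalling. Before this, all lines alike had 2 days of cold and a white light pulse of 6 h at 50 µmol per m2 and s, and the only temperature labelled is 4 °C. Whether replicate libraries are separate cultures is not labelled, so every p-value here may reflect technical spread alone.

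Gene values are those of the authors' deposited table, which has for each listed gene a log2 fold change (red light over darkness, or MLB over EMS27) and a false discovery rate (FDR). To be listed, a gene had to pass both thresholds: more than 1 in log2 fold change, up or down, and less than 0.01 in FDR. Levels and values per library were not part of it, so the number of reads behind a gene is unknown. In whole seedlings, fewer cells of a type and less RNA per cell cannot be told apart. No row of RRC1 or PHYB was used here. Splicing events were listed with reads, whose sum per library was 24482 to 28447 in the MLB and EMS27 table and 34004 to 38559 in the other.

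Antenna proteins bind chlorophyll and carotenoids and pass the energy of absorbed light to the reaction centres of photosystem II, which splits water, and photosystem I, which reduces ferredoxin. The core subunits that carry the reaction centres are encoded in the chloroplast genome, whereas the antenna and many outer subunits are encoded in the nucleus and imported. Dark-grown seedlings lack the green photosynthetic membrane, and nuclear photosynthesis genes are textbook targets of the phytochromes and of the PIF factors that phytochromes remove in light.

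The 4 stretches printed next are the 250 bases before the annotated start of genes that mark the ends of the range. LHCB1.4 had the largest rise of all 46, and LHCB1.3 the smallest of the LHCB1 genes. LHCA1 had the largest of the photosystem I antenna, and LHCB7 the smallest of all 46. The stretches were read from the RefSeq genome of the TAIR10.1 assembly in the direction of the gene. Capitals mark matches to the motifs described with the promoters. LHCB1.4 lies on the plus strand (window chr2:14524357-14524606), as do LHCB1.3 (chr1:10477635-10477884) and LHCB7 (chr1:28728748-28728997). LHCA1 lies on the minus strand (chr3:20341177-20341426).
LHCB1.4: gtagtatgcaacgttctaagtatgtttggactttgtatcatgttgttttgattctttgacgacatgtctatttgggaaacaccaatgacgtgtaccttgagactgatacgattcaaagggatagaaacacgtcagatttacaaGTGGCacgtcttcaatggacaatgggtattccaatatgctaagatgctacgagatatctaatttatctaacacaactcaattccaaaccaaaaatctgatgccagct
LHCB1.3: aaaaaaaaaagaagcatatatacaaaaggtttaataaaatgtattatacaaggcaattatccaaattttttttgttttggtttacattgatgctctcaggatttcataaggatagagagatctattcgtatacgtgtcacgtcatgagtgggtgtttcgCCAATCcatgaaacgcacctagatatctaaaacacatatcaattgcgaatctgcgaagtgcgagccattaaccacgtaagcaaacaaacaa
LHCA1: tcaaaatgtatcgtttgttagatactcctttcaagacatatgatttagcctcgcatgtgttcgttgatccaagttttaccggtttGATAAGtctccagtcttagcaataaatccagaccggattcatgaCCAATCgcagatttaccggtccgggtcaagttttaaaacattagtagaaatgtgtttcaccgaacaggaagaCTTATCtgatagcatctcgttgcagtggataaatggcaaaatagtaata
LHCB7: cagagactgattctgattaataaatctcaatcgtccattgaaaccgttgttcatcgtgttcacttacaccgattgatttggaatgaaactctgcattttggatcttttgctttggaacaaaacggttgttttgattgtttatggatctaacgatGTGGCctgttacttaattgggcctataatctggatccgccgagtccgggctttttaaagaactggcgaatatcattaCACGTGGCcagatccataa

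Red light was compared with darkness in MLB, whose phyB is made in the epidermis. No line without phyB was included, so a response to epidermal phyB, to other phytochromes or to light by another way cannot be told apart. All 46 members were listed as higher in the authors' deposited table and none as lower, where 12.8% of all genes tested were called higher and 6.76% lower. Log2 fold changes in the authors' deposited table ran from 2.01 for LHCB7 to 11.004 for LHCB1.4, with a median of 3.50, or 11.3-fold. The 2540 genes called higher had a median of 1.75 in the authors' deposited table, or 3.37-fold, and all 46 members lay above it. A log2 fold change above 3 was reached by 33 members (71.7%) and by 409 of the 2540 rises (16.1%) in the authors' deposited table. Above 6 stood 8 members in the authors' deposited table, all of them LHC genes, of 68 genes in all. The median of all rises covers listed genes only, since the others had no value.

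**Figure D1:**
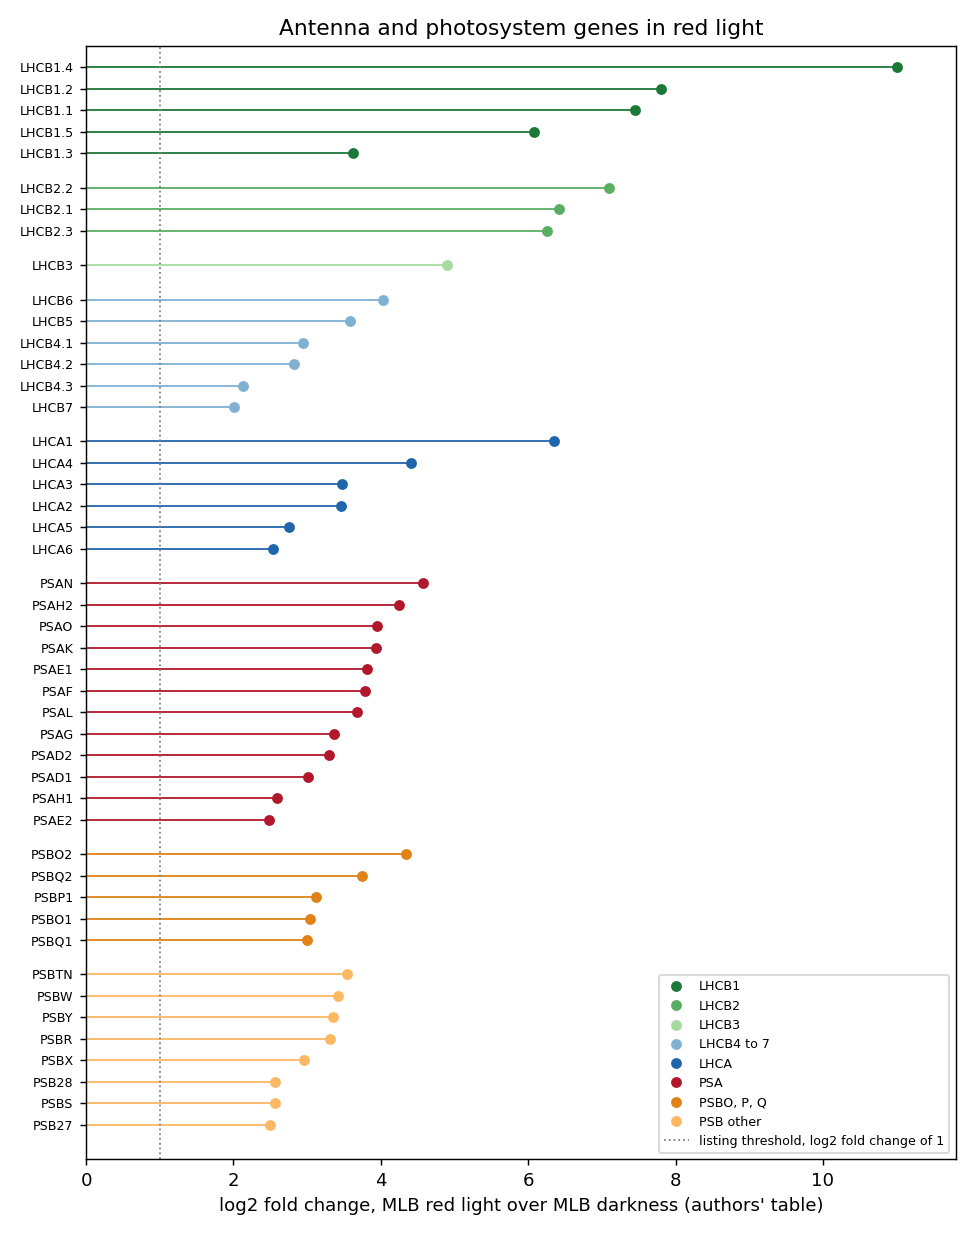
Log2 fold change of MLB in red light over MLB in darkness (x axis, authors' deposited table) for each of the 46 genes (rows), grouped by family; each point is 1 gene, and no error bars are drawn because no values per library were given. Every point lies right of the listing threshold of 1, and the LHCB1 and LHCB2 genes reach farthest, up to 11.004.

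The trimeric antenna of photosystem II, made of LHCB1, LHCB2 and LHCB3 proteins, held most of the largest rises. LHCB1.4 rose by 11.004 on the log2 scale in the authors' deposited table, about 2054-fold (FDR 3.72e-301), and ranked 6 among the 2540 rises; it lies on chromosome 2, 14524607 to 14525918. How many dark reads this ratio rests on is unknown. LHCB1.2 followed at 7.80 (FDR 6.16e-242) and LHCB1.1 at 7.45 (FDR 9.39e-275) in the authors' deposited table, about 223-fold and 175-fold. LHCB1.5 was at 6.08, or 67.7-fold, and LHCB1.3 at 3.62, or 12.3-fold (FDR 2.32e-75), in the authors' deposited table. LHCB1.4 and LHCB1.3 were thus 7.38 log2 units apart. The loci of LHCB1.1 to LHCB1.5 are AT1G29920, AT1G29910, AT1G29930, AT2G34430 and AT2G34420.

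The LHCB2 proteins are phosphorylated, as LHCB1 is, when antenna moves between the photosystems, and their 3 genes lay closer together. LHCB2.2 was at 7.09 in the authors' deposited table, LHCB2.1 at 6.42 and LHCB2.3 at 6.25, or 136-fold, 85.9-fold and 76.1-fold. LHCB3, an antenna protein that lacks that phosphorylation site, was at 4.90, or 29.9-fold, in the authors' deposited table. The median of these 9 genes was 6.42 in the authors' deposited table, against 3.34 for the other 37 members.

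Monomeric antenna proteins link the trimers to the photosystem II core, and the median of LHCB4 to LHCB7 was 2.89 in the authors' deposited table. LHCB6 (CP24) was at 4.03 and LHCB5 (CP26) at 3.58 in the authors' deposited table. LHCB4.1 and LHCB4.2, both CP29, were at 2.95 and 2.82 there, and another CP29 gene, LHCB4.3, was at 2.14 (FDR 1.61e-49) in the authors' deposited table. LHCB7, a rare antenna protein, was at 2.01, or 4.03-fold (FDR 1.56e-41; chromosome 1, 28728998 to 28730851), in the authors' deposited table. LHCB7 and LHCB4.3 had the smallest rises of the 46 genes, followed by PSAE2 at 2.48 (FDR 1.10e-106) in the authors' deposited table.

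Photosystem I has its own antenna belt of LHCA1 to LHCA4. LHCA1 stood out with 6.35 in the authors' deposited table, or 81.7-fold (FDR 1.92e-221; chromosome 3, 20339504 to 20341176). LHCA4, its partner in a dimer, was at 4.41, and LHCA3 and LHCA2, which form the other dimer, were at 3.47 and 3.46 in the authors' deposited table. LHCA5 and LHCA6, scarce proteins that link photosystem I to the chloroplast NDH complex, were at 2.75 and 2.54 in the authors' deposited table.

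The 12 PSA genes of photosystem I subunits ran from 2.48 to 4.57 with a median of 3.73, or 13.3-fold, in the authors' deposited table. PSAN, a lumenal subunit on the plastocyanin side, was highest at 4.57, or 23.8-fold (FDR 1.23e-179), in the authors' deposited table. PSAH2, a subunit at the docking site of the mobile antenna, was at 4.25 there, and PSAO and PSAK, small membrane subunits, were at 3.95 and 3.94 in the authors' deposited table. PSAE1 on the stromal side was at 3.81 and PSAF, which docks plastocyanin, at 3.78 in the authors' deposited table. PSAL and PSAG, membrane subunits, were at 3.68 and 3.37 in the authors' deposited table. The ferredoxin-docking subunit genes PSAD2 and PSAD1 were at 3.30 and 3.02 in the authors' deposited table. PSAH1 was at 2.59, so that 10 of the 12 PSA genes lay above 3 in the authors' deposited table.

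The 13 PSB genes of photosystem II subunits ran from 2.49 to 4.34, with a median of 3.12, or 8.69-fold, in the authors' deposited table. The outer proteins of the oxygen-evolving complex shield its water-splitting manganese cluster. Their genes were led by PSBO2 at 4.34, or 20.3-fold (FDR 2.60e-168), in the authors' deposited table. PSBQ2 was at 3.74, PSBP1 at 3.12, PSBO1 at 3.04 and PSBQ1 at 2.9996 in the authors' deposited table. The small subunit genes PSBTN (3.54), PSBW (3.42), PSBY (3.34) and PSBX (2.96) and the PSBR gene (3.31) lay close together in the authors' deposited table. PSBS, whose protein starts the thermal release of excess light energy, was at 2.57, or 5.92-fold, in the authors' deposited table. PSB28 and PSB27, which act in photosystem II assembly and repair, were at 2.57 and 2.49 in the authors' deposited table. PSAD2 and PSBP1 each overlap another annotated locus, so their reads may not be theirs alone, and 44 of 46 members had no such overlap.

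Several of these proteins come from more than 1 gene, and the values of the copies differed for some pairs. LHCB1.1 and LHCB1.2 encode identical proteins of 267 residues, and their log2 fold changes were 7.45 and 7.80 in the authors' deposited table. LHCB1.3 is 99.6% identical to both in protein sequence, with 1 substitution, yet its value of 3.62 in the authors' deposited table gives a ratio 14.2-fold smaller than that of LHCB1.1. LHCB1.4 and LHCB1.5 are 95.5% identical and were at 11.004 and 6.08 in the authors' deposited table, 30.3-fold apart. The difference between copies was not tested, since no values per library or errors were given.

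LHCB2.1 and LHCB2.2, 97.7% identical, were 1.59-fold apart in the authors' deposited table, and LHCB4.1 and LHCB4.2, 88.6% identical, were 1.09-fold apart. PSAH2 exceeded PSAH1 3.16-fold in its ratio of red light to darkness in the authors' deposited table, PSAE1 exceeded PSAE2 2.52-fold and PSBO2 exceeded PSBO1 2.47-fold. PSBQ2 exceeded PSBQ1 1.67-fold and PSAD2 exceeded PSAD1 1.22-fold in that ratio in the authors' deposited table. PSBO1 is the copy that makes most of the PSBO protein in leaves of Arabidopsis.

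**Figure D2:**
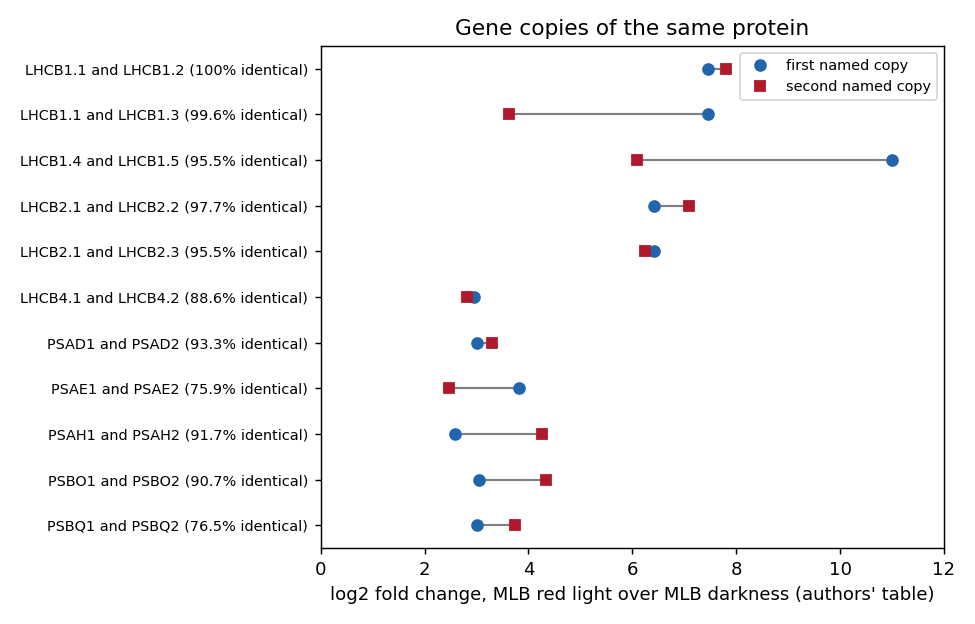
Log2 fold change of MLB in red light over MLB in darkness (x axis, authors' deposited table) for pairs of gene copies (rows, with protein identity); the circle is the first named copy, the square the second. Among the pairs drawn, LHCB1.1 and LHCB1.3 and LHCB1.4 and LHCB1.5 lie farthest apart, at 7.45 and 3.62 and at 11.004 and 6.08.

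The copies also share stretches of transcript, which matters for how reads are assigned. Of all 50-base words in the exons of LHCB1.1, 20.5% occurred elsewhere in the nuclear genome, all of them in other LHCB1 genes. For LHCB1.3 this share was 17%, for LHCB1.5 17.3%, for LHCB1.4 13.7% and for LHCB1.2 10.6%. LHCB2.1 (23.5%) and LHCB2.2 (29.5%) shared words with each other. LHCA2 had 11.4% of its words elsewhere in the genome but in no other member, and the remaining 38 members had none repeated. How the authors' counting treated reads that fit several genes is not given in the sources used here, so the values of these 8 genes are uncertain to that extent. Words were matched exactly, so reads that fit another gene with mismatches were not assessed for any member.

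These copies are also neighbours. LHCB1.2, LHCB1.1 and LHCB1.3 lie in a row on chromosome 1, with gaps of 1153 and 1915 bases, and LHCB1.1 and LHCB1.3 are transcribed away from each other. LHCB1.5 and LHCB1.4 on chromosome 2 are likewise transcribed away from each other, from a shared gap of 1038 bases, and LHCB2.2 and LHCB2.1 lie 22517 bases apart on the same strand. No other members lay within 50000 bases of each other. Chromosome 1 held 19 of the 46 genes, chromosomes 2 and 3 held 8 each, chromosome 4 held 7 and chromosome 5 held 4.

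The size of a rise and its p-value did not order the genes alike. LHCA6, at 2.54, ranked 124 by p-value among the 3887 genes in the authors' deposited table (FDR 3.42e-204), ahead of LHCB3 at 4.90, which ranked 223. PSB27 at 2.49 ranked 283 (FDR 1.83e-135) in the authors' deposited table, whereas LHCB1.3 at 3.62 ranked 713 and PSBS at 2.57 ranked 815. LHCB7 ranked 1329, last among the members, in the authors' deposited table. All 46 kept an FDR below 1e-10 and a log2 fold change above 2.

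**Figure D3:**
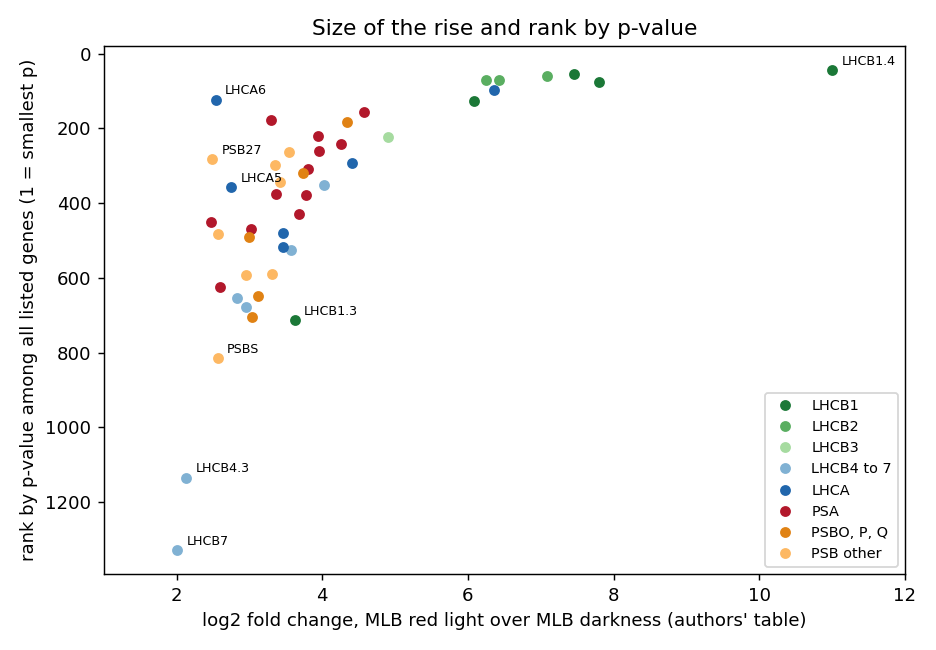
Log2 fold change of MLB in red light over MLB in darkness (x axis, authors' deposited table) against the rank by p-value among the 3887 genes of that table (y axis, 1 at the top) for the 46 genes, coloured by family. LHCA6 sits near rank 124 with a log2 fold change of 2.54, and LHCB7 is lowest at rank 1329.

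The promoters were searched on both strands for 5 short motifs in the 250 bases before the gene start. The motifs were the G-box (CACGTG), which PIF and HY5 factors bind, the I-box (GATAAG), an element known from GLK target genes (CCAATC), the evening element (AAATATCT) and the SORLIP1 element of light-responsive promoters (GCCAC). A SORLIP1 match can overlap a G-box, as it does in the last capitals of the LHCB7 promoter. At least 1 of the 5 was present in 32 of the 46 promoters.

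A G-box was found in 11 of 46 member promoters (23.9%), against 6.49% of 27443 promoters of protein-coding genes. SORLIP1 was found in 21 (45.7%, against 15.4% of all) and the I-box in 9 (19.6%, against 12.3%). The GLK-type element was found in 12 (26.1%, against 10.2%), of which 10 belonged to the 21 LHC genes and 2 to the 25 PSA and PSB genes. The evening element was found in 1, LHCA5 (2.17%, against 4.79%). Among 76 other nuclear genes of the photosynthetic membrane, the shares were 10.5% (G-box), 18.4% (SORLIP1), 19.7% (I-box), 14.5% (GLK-type) and 7.89% (evening element). The I-box share there was close to that of the members. These counts describe letters in a window, without a test. In the printed promoters, LHCB1.4 had a single SORLIP1 match, 103 to 107 bases before its start, and LHCB1.3 a single GLK-type match, 86 to 91 bases before. LHCA1 had I-box matches 44 to 49 and 160 to 165 bases before its start, and a GLK-type match 116 to 121 bases before. LHCB7 had a G-box 14 to 19 bases before its start with an overlapping SORLIP1 match, and another SORLIP1 match 92 to 96 bases before.

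**Figure D4:**
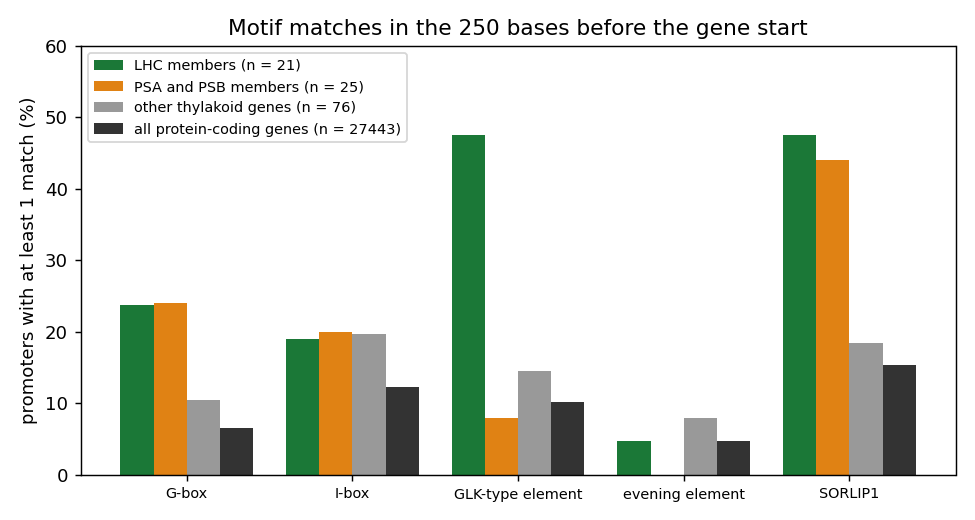
Share of promoters with at least 1 match (y axis, %) for each of 5 motifs (x axis), in LHC genes, PSA and PSB genes, other thylakoid genes and all protein-coding genes (bars, each starting at 0). The GLK-type element was in 47.6% of LHC promoters and 8% of PSA and PSB promoters, and SORLIP1 in 47.6% and 44%.

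MLB was also compared with EMS27, an rrc1 mutant line, in red light. Whether a difference between these lines is due to RRC1 was not tested. LHCB7 was the only member listed in the authors' deposited table, at 1.44 for MLB over EMS27, or 2.72-fold higher in MLB (FDR 1.11e-33). This was 1 of 46 (2.17%), where 4.14% of the 19143 genes tested were called higher, 1.85% lower and 5.99% either way. The other 45 members had no row, and whether they missed the fold threshold, missed the FDR limit or were not among the genes tested cannot be told. LHCB7 had thus the smallest rise in red light of the 46 genes, 2.01, beside a value of 1.44 over EMS27 in the authors' deposited table; both comparisons share the MLB red light libraries.

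Splicing was compared because RRC1 takes part in it. None of the 325 events listed by the authors for MLB and EMS27, and none of the 328 listed for Col-0 and rrc1-689, lay in a member gene. The annotation gives introns to 34 of the 46 members, 83 distinct introns in all, and none to the other 12, among them all 5 LHCB1 genes. The listed events lay in 264 and 270 genes. For MLB and EMS27 this is 1.38% of the number of genes in the expression comparison, so a count of 0 in 46 is near that share. How many genes were tested for splicing is not known, and no such share was formed for Col-0 and rrc1-689. Of the listed events, 89.5% and 88.7% were called in limma tests of the level per library. The authors had listed them for differing in the same libraries, so these tests are no independent support. Events outside the authors' thresholds were not analysed here, so smaller changes in members cannot be seen.

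Other nuclear genes of the photosynthetic membrane, 76 in 7 lists, are given for comparison. Of these, 55 (72.4%) were listed as higher in red light and 1 as lower in the authors' deposited table. Among all genes tested, 12.8% were called higher and 6.76% lower. The median was 2.42 over the 56 listed in the authors' deposited table. Among electron carriers 9 of 12 were listed as higher, led by PGRL1A of cyclic electron flow (3.33) and the plastocyanin genes PETE2 (3.31) and PETE1 (3.18) in the authors' deposited table. Of 17 NDH complex genes 15 were listed as higher, led by NDHU (4.03) in the authors' deposited table, and 3 of 4 ATP synthase genes, led by ATPD (3.20). Of 9 genes of antenna insertion and phosphorylation, 3 were listed as higher. In the authors' deposited table these were the kinase gene STN7 (3.19), CPSRP43 (2.03), which acts in antenna protein targeting, and LTD (1.23). Assembly and repair genes were listed as higher in 14 of 19 cases, led by HCF173 (3.59), in the authors' deposited table. Photosystem II associated and thylakoid curvature genes were listed as higher in 6 of 7 cases, led by CURT1B (3.24) in the authors' deposited table. ELIP1, an early light-induced relative of the antenna proteins, was the 1 gene listed as lower (-1.28, FDR 0.000128) in the authors' deposited table, among 8 LHC-like genes of which 5 were listed as higher.

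**Figure D5:**
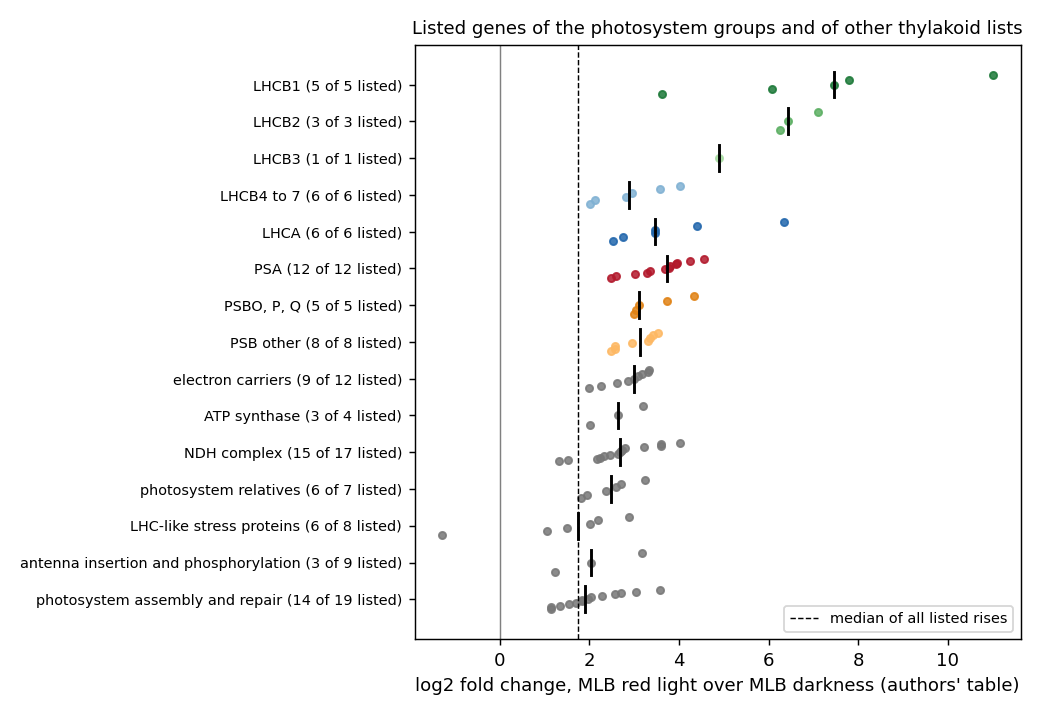
Log2 fold change of MLB in red light over MLB in darkness (x axis, authors' deposited table) for listed genes of the 8 photosystem groups (coloured) and 7 other thylakoid lists (grey); points are genes, bars are medians over listed genes, and row labels give how many of each list were listed. The dashed line is the median of all listed rises, 1.75; LHCB1 has its median at 7.45 and photosystem assembly and repair at 1.91.

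For MLB over EMS27 the same 7 lists held 14 genes listed as higher and none as lower in the authors' deposited table (18.4% of 76, where 4.14% of all genes tested were called higher). Of these, 8 were NDH complex genes, led by PNSL4 (1.42), and 3 belonged to assembly and repair, led by HCF173 (1.56), in the authors' deposited table. In the photosystem genes themselves 1 of 46 was listed, and the difference between the lists was not tested.

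Some markers of single tissues were listed too. In red light over darkness, 3 of 5 stomatal lineage markers (FAMA 2.098, SPCH 1.78, TMM 1.12) and 3 of 4 root hair markers (EXPA18 2.21, EXPA7 2.14, RSL4 1.48) were listed as higher in the authors' deposited table, and none of the 3 epidermis or 3 vascular markers was listed. Together, 6 of the 15 markers (40%) were listed as higher, where 12.8% of all genes tested were called higher. No marker was listed for MLB over EMS27. Their levels were not given, and their part in the rises was not tested.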

How the data were processed

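Groups and replicate numbers of the 24 RNA libraries came from their titles. TopHat2 2.1.1 and TAIR10 are named in the submitters' processing notes, and ASpli 1.9 in the information sheet beside the tables. Per gene the authors deposited a log2 fold change, a p-value and an FDR, for listed genes only and for no single library. Hence no gene model was fitted here, and counts of members use the authors' calls. How many genes they tested follows from FDR, p and rank (98.0% and 96.9% of ranks came out whole within 0.01). Event reads of 26 genes gave the deposited sign in all 26, at a slope of 1.15.

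For events, raw counts of reads in each library and the fraction in each group were deposited. The fraction is inclusion reads over these plus exclusion reads, the latter doubled except for alternative splice sites. Recomputed fractions were within 0.0001 for 325 of 325 and 328 of 328 events. Their logit (natural log, exclusion reads doubled likewise, 0.5 added to both sums) was tested per library with limma 3.58.1 (R 4.3.3), Benjamini-Hochberg adjusted over each table, at 0.05; the fit was tested on simulated data. Gene depth is unknown.

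Coordinates in TAIR10.1 equalled those in the tables for all 46 members, and for 3841 of 3843 and 1134 of 1135 listed genes found in both. Protein identity is that of the best isoform pair of translated coding sequences, over the longer protein. Words of 50 bases were counted on both strands of the nuclear chromosomes. Any member could be named, and of other lists up to 3 genes with the largest change in each direction. Members, lists and motifs were chosen with earlier results of these data known. The alternatives were stricter fold and FDR thresholds, copies counted once and overlapping genes left out, and for splicing another offset, a read filter, a replicate block, the untransformed level and leaving out each replicate.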

Additional observations from a re-analysis of the deposited data

How the results depend on the processing

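All 46 members stayed listed for red light over darkness with a log2 fold change above 2 or an FDR below 1e-10; with copies of 95% or more protein identity counted as 1 they made 40, and without overlapping genes 44. For MLB over EMS27, LHCB7 stayed listed except with a log2 fold change above 2, which left 0 members. In the splicing tables, which held no member, limma called 291 of 325 events for MLB and EMS27 and 291 of 328 for Col-0 and rrc1-689. Leaving out a replicate number of both groups, with fewer samples tested each time, gave 190 to 232 and 214 to 234 calls. For MLB and EMS27 the count was 190 without replicate 3, against 227 and 232 without replicates 1 and 2. Why it was lowest without replicate 3 was not tested. With the replicate number as a block the counts were 276 and 284. Adding 1 in place of 0.5 gave 293 and 300, and the untransformed level 263 and 282. Fewer events had at least 10 reads in every library, and 259 of 281 and 274 of 306 were called. The numbers were not treated as pairing the samples: same-numbered samples had correlations of -0.0780 to 0.109 in their deviations, and 3 of 6 and 0 of 6 samples correlated best with their own number. No paired analysis was possible for the gene comparisons because the tables hold no values per library. The main limits are the absence of gene levels, of errors per gene and of values for genes that were not listed.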

Other observations

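A gene of the antenna phosphorylation list, PBCP, had a listed splicing event between Col-0 and rrc1-689. PBCP encodes the phosphatase of the photosystem II core. The event is an intron of PBCP (chromosome 2, 12880689 to 12880777), and its retention level is the reads across both intron ends over these plus the spliced reads counted double. The level was 8.55%, 7.01% and 8.60% in the 3 Col-0 libraries and 1.01%, 1.38% and 1% in the 3 rrc1-689 libraries. The group means were 8.05% ± 0.906 (SD, n = 3) and 1.13% ± 0.218 (SD, n = 3). The groups did not overlap, but the authors had listed the event for this difference in the same libraries, and 88.7% of the 328 listed events were called in the limma test. The difference is therefore a description. The lower level rests on 2 to 3 retained reads per library. PBCP was also listed as higher in MLB than in EMS27 (1.18, FDR 1.02e-33) in the authors' deposited table, in other libraries than those of the splicing event.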
